A study of Caenorhabditis elegans with 2 samples.

Results

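APTF-3, a transcription factor of the AP-2 family, gave 207 peaks whose summits lay in the promoter window of a protein-coding gene and away from small RNA genes, of 785 peaks in the series' main list. A summit counted when it lay from 1000 bp upstream to 200 bp downstream of the annotated 5′ end of a nuclear coding gene and more than 100 bp from every tRNA, snoRNA, snRNA and rRNA gene. Signal and reproducibility took no part in that choice beyond the main list itself. The 207 sites lay in the windows of 240 coding genes of 19973, or 1.2%. Another 49 main-list summits lay in a coding window but within 100 bp of a small RNA gene, and the rest lay in no coding window.

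Chromatin immunoprecipitation and sequencing was done on 1 strain, OP765, in 2 biological replicates that form a single group. The animals carry wgIs765, an integrated fosmid copy of aptf-3 fused to TY1, EGFP and 3xFLAG together with an unc-119(+) rescue, in an unc-119 (tm4063) background, and the fosmid came from a single colony. Whole young adults were taken at 64 h after synchronised growth from starved first-stage larvae, and the antibody was against GFP. All tissues are mixed in such a sample, the transgene adds to the endogenous gene, and no untagged or other strain was analysed here.

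AP-2 factors bind DNA as dimers and recognise a GC-rich palindrome whose arms are GCC and GGC. In Caenorhabditis elegans the family has several members, best known for roles in sleep-active neurons and in larval development. A promoter in this animal is compact: neighbouring genes are close, many pairs of genes are transcribed away from a shared stretch of DNA, and others follow each other in operons. The 5′ ends of many messages are replaced by a spliced leader, so that an annotated 5′ end may lie downstream of the place where transcription begins.

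The strongest site lay between F44E5.4 and F44E5.5, a divergent pair of HSP70 chaperone genes, and its sequence holds the heat shock element unit GAANNTTC (N is any base). The shared promoter is shown first, at chrII:11759383-11759583 on the minus strand of ce11, with that unit in capitals. The site upstream of the kinesin gene ZC262.7, at chrIII:8344407-8344527 on the minus strand, is shown beside it because the same unit recurs there in a tandem repeat.
F44E5.4 / F44E5.5: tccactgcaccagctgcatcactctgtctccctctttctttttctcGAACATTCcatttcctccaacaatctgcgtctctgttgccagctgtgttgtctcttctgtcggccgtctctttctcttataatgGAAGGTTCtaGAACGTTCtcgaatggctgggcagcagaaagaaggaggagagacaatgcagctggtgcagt
ZC262.7: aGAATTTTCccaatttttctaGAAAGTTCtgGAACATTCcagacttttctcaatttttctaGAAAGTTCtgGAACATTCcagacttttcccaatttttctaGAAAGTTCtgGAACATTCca

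A word of 9 bases, CCTGGGAAG on either strand, stood at 6 of the 12 strongest sites and was singled out after the values were seen. The next lines show it in capitals at 5 of these and at cdc-25.3, each read 5′ to 3′ on the strand of the nearest gene. They are Y32H12A.8 (chrIII:5406452-5406552, minus), mrp-4 (chrX:9883951-9884051, plus), T10C6.7 (chrV:16031717-16031817, minus), the divergent pair F14D7.2 / F14D7.9 (chrV:14293906-14294029, minus), T10C6.16 (chrV:16033662-16033762, minus) and cdc-25.3 (chrIII:8918145-8918251, minus).
Y32H12A.8: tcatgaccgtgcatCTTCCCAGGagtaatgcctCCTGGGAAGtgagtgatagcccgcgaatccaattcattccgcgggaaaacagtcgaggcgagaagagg
mrp-4: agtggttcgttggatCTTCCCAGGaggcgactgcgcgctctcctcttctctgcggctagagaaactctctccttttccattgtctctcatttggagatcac
T10C6.7: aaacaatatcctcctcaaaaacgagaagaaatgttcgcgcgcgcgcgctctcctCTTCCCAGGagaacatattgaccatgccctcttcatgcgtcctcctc
F14D7.2 / F14D7.9: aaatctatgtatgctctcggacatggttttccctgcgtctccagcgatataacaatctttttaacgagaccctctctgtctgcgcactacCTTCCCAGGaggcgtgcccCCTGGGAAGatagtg
T10C6.16: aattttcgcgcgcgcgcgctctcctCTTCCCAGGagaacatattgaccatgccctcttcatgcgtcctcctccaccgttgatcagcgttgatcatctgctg
cdc-25.3: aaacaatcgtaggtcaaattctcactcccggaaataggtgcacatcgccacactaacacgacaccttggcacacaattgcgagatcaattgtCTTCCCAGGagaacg

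In Y32H12A.8 and in F14D7.2 / F14D7.9 the word occurs as an inverted pair with its copies 19 bp apart from centre to centre. T10C6.7 and T10C6.16 carry the word inside a longer stretch that is the same at both. The last set shows an 8-base word, GAGACGCA, at the divergent pair R107.5 / cls-2 (chrIII:9054086-9054166, minus). It also shows the AP-2 consensus GCCNNNGGC at his-61 (chrIV:7486891-7486951, minus) and at sec-61.G / F32D8.13 (chrV:10897371-10897431, minus). The his-61 summit lay 644 bp upstream of that gene, in a coding exon of another gene. A repeat at eel-1 (chrIV:3050383-3050583, minus) comes last, and its capitals are the bases inside runs of 20 or more shared with the site of rps-24. The eel-1 summit, at 3050483, lay outside these capitals.
R107.5 / cls-2: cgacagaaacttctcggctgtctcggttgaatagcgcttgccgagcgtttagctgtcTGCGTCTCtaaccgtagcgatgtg
his-61: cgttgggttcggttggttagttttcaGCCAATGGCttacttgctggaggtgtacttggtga
sec-61.G / F32D8.13: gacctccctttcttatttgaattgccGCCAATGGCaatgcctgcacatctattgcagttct
eel-1: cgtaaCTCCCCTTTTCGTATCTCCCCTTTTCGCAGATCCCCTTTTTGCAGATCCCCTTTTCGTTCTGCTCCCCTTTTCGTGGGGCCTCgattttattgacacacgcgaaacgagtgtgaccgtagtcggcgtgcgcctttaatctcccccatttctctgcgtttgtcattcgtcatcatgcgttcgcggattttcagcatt

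Signal here is the value deposited with each peak, and its scale is stated neither in the labels nor in the headers. Its median over the 207 sites was 78.2, with an interquartile range of 69.1 to 92.5 and a range of 2.51 to 297. The other 578 main-list peaks had a median of 76.2, so the coding-promoter sites were spread over the same range as the rest of the list. The 49 coding-promoter peaks close to small RNA genes had a median of 82.7. The 20976 further peaks of the ranked list that met the same position rule had a median of 21.4, a difference that the ranking itself sets.

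The HSP70 site between F44E5.4 and F44E5.5 had a signal of 297, with 126 in replicate 1 and 174 in replicate 2. Its summit lay 172 bp upstream of F44E5.4 and 179 bp upstream of F44E5.5, 3.5 bp from the midpoint. Y32H12A.8, which encodes a protein with a RING zinc finger domain, followed with 266, and had 124 and 144 in the replicates. mrp-4, an ABC transporter of the multidrug resistance family, had 217, with 102 and 118. These sites were the highest in both replicates as well, and in each of the 3 replicate 2 had the larger value.

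The next ranks held genes of unlike function. T10C6.7, an F-box gene, had a signal of 186, with 79.2 in replicate 1 and 107 in replicate 2. The site between F14D7.2 and F14D7.9 had 177, with 76.5 and 101, in a gap of 979 bp between the 5′ ends. The HECT-type ubiquitin ligase gene eel-1 had 166, with 78.2 and 84.7. T10C6.16, whose product carries a domain found in F-box proteins, had 165, with 77.9 and 86.5. F-box proteins and HECT ligases both serve the transfer of ubiquitin to other proteins.

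Genes of the ribosome came after them: rpl-3, which encodes large-subunit protein uL3, had a signal of 151, with 79.2 and 71.5 in the replicates. rpl-35, which encodes uL29, had 149, with 76.1 in replicate 2 and no summit within 100 bp in replicate 1. The chemoreceptor gene sre-23 had 149, with 78.3 in replicate 2, and VH15N14R.1, whose product is named Nipped-B-like protein B, had 148, with 74.6 and 73.1. The kinase gene kin-35 had 147, with 62.6 and 79.2. rpl-3 and VH15N14R.1 were thus higher in replicate 1 and kin-35 in replicate 2, and the replicates did not share one order at this level.

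**Figure D1:**
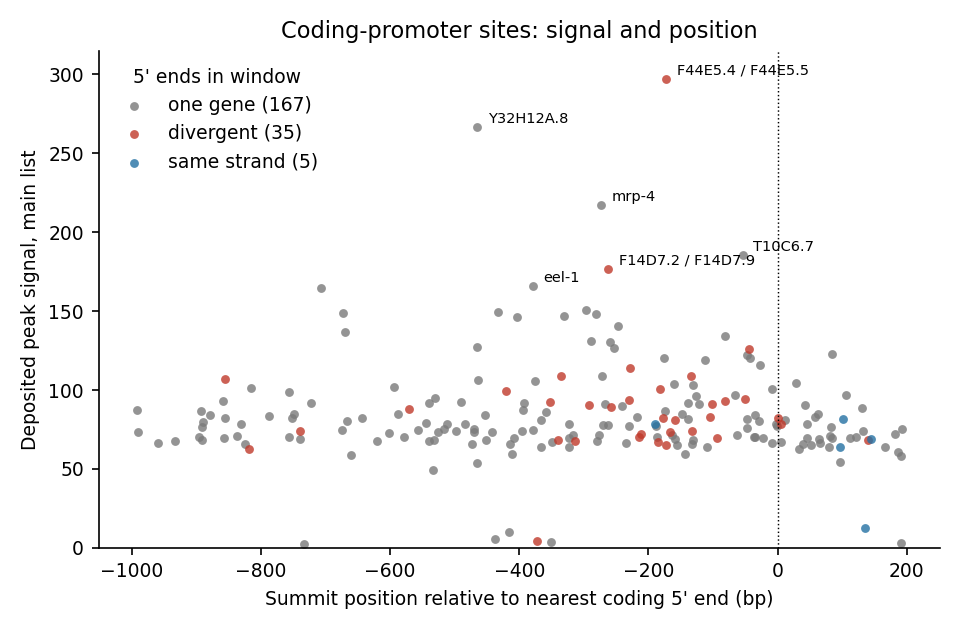
Deposited signal of the 207 sites against the position of the summit relative to the nearest coding 5′ end in bp (negative is upstream), with 1 point for each site. Grey points have 1 coding 5′ end in the window, red points lie at divergent 5′ ends and blue points at 5′ ends of the same strand; the 6 strongest sites are named, and 7 sites lie below a signal of 20.

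At the other end, 7 sites had a signal under 20, and the lowest of the others had 49.2. The weakest were F49C12.11 with 2.51 and cec-6, which encodes a chromodomain protein, with 3.08. The others were T13C5.6 (3.64), Y22D7AL.10 / hsp-60 (4.23), eat-17 (5.56), Y46H3C.5 (9.92) and K07C5.13 / K07C5.3 (12.5). Each of the 7 lay 199 to 207 bp from a stronger main-list summit with a signal of 66.4 to 97.1. They account for most of the 11 genes that had 2 sites in the window; the pairs at cox-5B and hsp-1 had a signal over 20 at both summits.

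A single coding 5′ end was in reach of 167 sites, or 80.7% (95% exact interval 74.6 to 85.8). Coding genes of a divergent pair, transcribed away from each other, were both in reach of 35 sites, or 16.9% (12.1 to 22.7). Genes on the same strand shared the window at 5 sites (2.42%), and genes facing each other at 0 of 207, which allows up to 1.77%. Among the other ranked peaks that met the position rule, 9.59% (9.19 to 9.99) lay at divergent pairs, 1.37% at same-strand genes and 0.0572% at facing genes. Counted over peaks, the divergent share was therefore higher at the main-list sites, and the intervals did not overlap. Counted over nearest genes, the upstream neighbour was head to head for 39.7%, against 39.2% of genes at the other ranked peaks. The divergent share depends on the window, with 9.86% from 500 bp upstream to 100 bp downstream. It was 25.5% from 2000 bp upstream to 500 bp downstream, and the weaker peaks were not placed in these windows. All intervals here cover counting error over peaks only, and peaks are not replicates.

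At the 35 divergent sites, 2 of them in the promoter of Y22D7AL.10 / hsp-60, the 5′ ends were 132 to 1831 bp apart, with a median of 785 bp. The summit lay between the 5′ ends in 32 of them and in the central stretch of the gap, between 1/3 and 2/3 of its length, in 20. The median distance to the midpoint was 128.5 bp. 15 summits were nearer the gene on the minus strand. Both 5′ ends had to lie within the window, so in the widest gaps the summit could fall only near the middle, and these positions are a description.

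Chaperone genes opened the list of divergent pairs, which went on with F14D7.2 / F14D7.9 at 177. The pair tasp-1 / K01G5.10, of which tasp-1 encodes a threonine aspartase, had a signal of 126, with 50.6 in replicate 1 and 75.4 in replicate 2. dnj-13, a J-domain cochaperone gene, and F54D5.9, an F-box gene, shared a site of 114, with 50.1 and 58.6. rib-2, an exostosin-like enzyme of heparan sulfate synthesis, and tbb-1, a beta-tubulin, shared a site of 109, with 33.1 and 70.6. R107.5 / cls-2 also had 109, with 60.8 and 51.0, and cls-2 encodes a CLASP-family microtubule regulator. As a ratio, rib-2 / tbb-1 differed most between the replicates among these pairs.

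Weaker divergent sites included further genes of known function. hsp-110, a chaperone gene, and the proteasome subunit gene rpn-3 had their 5′ ends 444 bp apart and a summit 7.0 bp from the midpoint, with a signal of 70.4. his-63 and his-64, a histone H3 and a histone H4 gene, lay 255 bp apart around a summit with 69.3. hsp-60 and Y22D7AL.10, which encode the mitochondrial chaperonin and its 10 kDa partner, shared a promoter of 813 bp with a summit of 73.2. dkc-1, a pseudouridine synthase subunit, and ran-1, the GTPase of nuclear transport, shared a site of 67.6. All of these sat below the median of the 207 sites.

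Same-strand sites were few. The strongest lay 102 bp inside rpl-16 (large-subunit protein uL13) and 953 bp upstream of M01F1.8, with a signal of 81.9. sec-61.G, a subunit of the translocon of the endoplasmic reticulum, and F32D8.13 followed with 78.8. nola-3, a subunit of the H/ACA ribonucleoprotein that guides pseudouridylation, shared a site of 68.8 with C25A1.16 and C25A1.20. Of these the first and the third had the summit downstream of the nearest 5′ end.

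The nearest coding 5′ end was a median of 262 bp downstream of the summit (95% interval 188 to 323), with quartiles at 49.5 and 494 bp. The median was 185 bp (159 to 262) at divergent sites, where it is the smaller of 2 distances, and 296 bp (241 to 379) at single-gene sites. The other ranked peaks had a median of 350 bp (339 to 358). Because the window fixes the possible range, these values describe positions within it. By bins, 30.0% of the sites (23.8 to 36.7) lay 1 to 250 bp upstream and 27.5% (21.6 to 34.2) lay 251 to 500 bp upstream, against 20.3% and 18.6% of the other ranked peaks. The 2 outer bins held 13.5% (9.18 to 19.0) and 11.1% (7.18 to 16.2), against 19.2% and 19.0%. At or downstream of the 5′ end lay 37 sites (17.9%), against 22.9%.

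**Figure D2:**
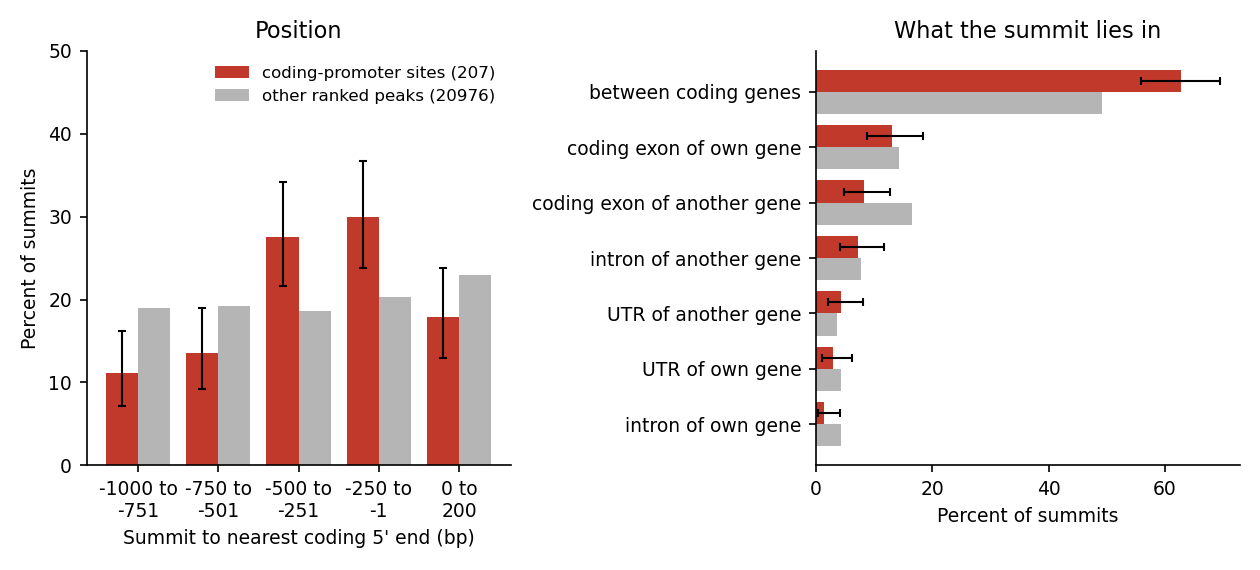
Left, percent of summits by position relative to the nearest coding 5′ end in bp; right, percent of summits by what they lie in. Red bars are the 207 coding-promoter sites with exact 95% intervals, and grey bars are the 20976 other ranked peaks that met the same position rule; the red bars stand above the grey ones within 500 bp upstream and between coding genes.

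Summits lay between coding genes at 130 sites, or 62.8% (55.8 to 69.4), against 49.3% of the other ranked peaks. A coding exon of the promoter's own gene held 27 summits (13.0%) and a coding exon of another gene 17 (8.21%), against 14.3% and 16.5%. Introns of another gene held 15 summits (7.25%, against 7.81%), among them Y32H12A.8, dnj-13 / F54D5.9 and npp-6, a nuclear pore gene. Other noncoding genes outside the small RNA classes lay within 100 bp of some summits, with 20 at ncRNA genes, 4 at pseudogenes and 3 at miRNA genes. Such counts were not taken for other peaks or promoters, so they are no feature of these sites. The miRNA cases were the sites of klp-16 / smn-1, nduf-9 and F55A11.4.

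The nearest genes of the 207 sites were 199 in number, and their upstream coding neighbours lay in tandem for 104 (52.3%), head to head for 79 (39.7%) and overlapping for 16 (8.04%). Over all coding genes these shares were 50.8%, 42.2% and 6.96%, so the orientation of the neighbour did not stand apart. Tandem genes differed in spacing. The gap to the upstream neighbour had a median of 360 bp at the sites, against 774 bp for genes at the other ranked peaks and 864 bp for all coding genes. It was 500 bp or less for 65 of 104 tandem genes (62.5%, 52.5 to 71.8), against 38.3% and 34.8%. Head-to-head gaps were 1291 bp, 1489 bp and 1404 bp.

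At the limits of the rule, sites inside and outside had signals over a like range, except ift-43. The 2 sites just inside the upstream end were dhs-8, a short-chain dehydrogenase gene (992 bp, signal 87.6), and ulp-4, a protease of the ubiquitin-like modifier SUMO (990 bp, 73.1). Just outside were ift-43 at 1003 bp with 251 and the small heat shock gene hsp-16.1 at 1017 bp with 78.0. At the downstream end, B0034.2 (192 bp, 75.4) and srh-178 (191 bp, 58.2) were inside, and ZK673.2 (209 bp, 69.8) and aldo-2 (219 bp, 89.5) outside. For the distance to small RNA genes, zen-4 at 109 bp (77.0) and sre-23 at 114 bp (149) were inside, while C28G1.2 / sec-15 at 67 bp (132) and C06G4.4 at 58 bp (64.2) were outside. The ift-43 peak would have ranked behind only the F44E5.4 / F44E5.5 and Y32H12A.8 sites.

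Few sites met the threshold in each replicate alone. Of the 207, 25 overlapped a peak of both replicates' own thresholded lists, or 12.1% (7.97 to 17.3), against 12% of all 785 main-list peaks. Replicate 1's list held 46 of the sites and replicate 2's list 62, while 124 (59.9%) were in neither. The conservative list held 148 sites, or 71.5% (64.8 to 77.5), against 70.2% of the main list. Reproducibility of the coding-promoter sites was thus near that of the list as a whole.

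The 25 sites in both lists were almost all among the strongest. Of the 52 strongest sites by signal (92.6 to 297), 23 were in both lists and 3 in neither, and of the next 52, 1 was in both. Besides most of the sites named above, they held ego-1, an RNA-directed RNA polymerase of the germline (147, with 62.7 and 78.3), mog-4, a splicing helicase that acts in the germline switch from sperm to oocyte (141, with 56.3 and 84.8), and rpa-2, a subunit of the single-stranded DNA binding complex (137, with 73.0 and 60.8). suf-1, a homolog of a 3′ end processing factor, was the weakest, at 64.0, with 46.2 and 30.4. The main list ranks on values of the same libraries, so this share is no independent measure of the strong sites.

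A summit within 100 bp was found in both replicates' ranked lists for 186 sites and in neither for 3. Over the 186, the median was 39.6 in replicate 1 (range 11.8 to 126) and 42.6 in replicate 2 (11.3 to 174), and replicate 2 was higher at 110 (59.1%). Across these sites the Spearman correlation of the replicate signals was 0.221 and the Pearson correlation of their log10 values 0.347. Over 515 other main-list peaks the same values were 0.207 and 0.332. The sites share both libraries, and a site had to be ranked high over both to enter the list. F46F11.7 lay far from equality, with 73.8 in replicate 1 and 11.3 in replicate 2.

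**Figure D3:**
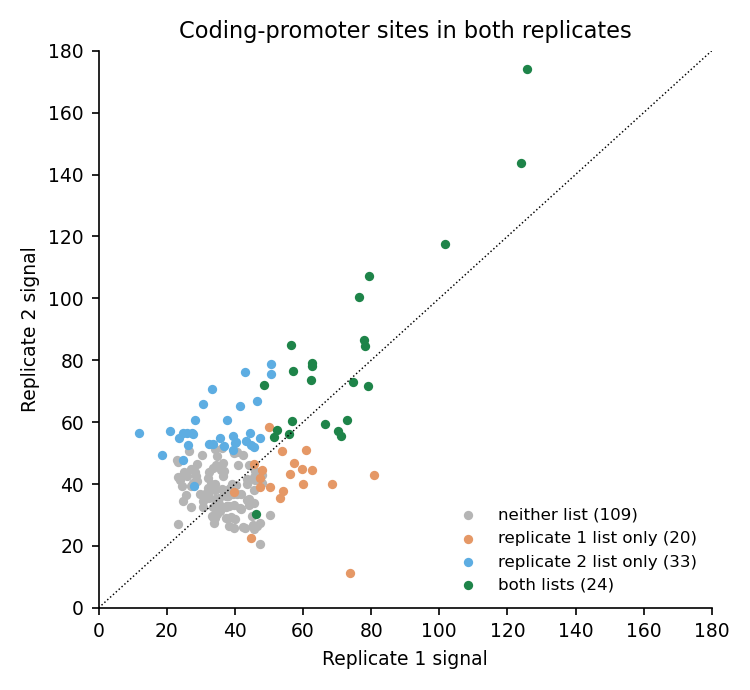
Signal in replicate 2 against signal in replicate 1 for the 186 sites with a summit within 100 bp in both ranked lists, 1 point for each site, with the line of equality dotted. Colours give membership of the replicates' own thresholded lists; the 24 matched sites in both lists reach to the upper right, and the 109 in neither lie between 22.9 and 50.4 in replicate 1.

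The AP-2 consensus GCCNNNGGC, searched on both strands, lay within 100 bp of the summit at 9 of 207 sites, or 4.35% (2.01 to 8.09). Windows of the same length centred 500 bp to the lower and higher coordinate held it at 0 and 4 sites. It was in 3.98% of the other main-list peaks, 1.49% of the other ranked peaks that met the position rule and 0.816% of all coding promoters in a window of the same length centred 262 bp upstream. Permuted palindromes with the same arms' letters were found at 13 sites for GGCNNNGCC and for GCGNNNCGC (6.28% each), 7 for CGCNNNGCG, 5 for CGGNNNCCG and 4 for CCGNNNCGG. In all promoters these were 1.53%, 1.34%, 1.56%, 1.39% and 0.801%. In share of sites the consensus thus stood within the range of these permuted palindromes, without adjustment for how common each is in promoters. The consensus was rarer in all promoters (0.816%) than each of them except CCGNNNCGG (0.801%). It was at 1.93% of the sites within 50 bp of the summit, at 9.66% with 2 to 4 bases between the arms, and at 1.96% of the sites of replicate 1's own list.

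None of the 12 strongest sites held the consensus. The strongest that did was wwp-1, a ubiquitin ligase gene, with 131, and with 62.3 and 73.5 in the replicates, where the match lay 87 bp from the summit. F22F1.3 followed with 84.9, the histone H2A gene his-61 with 82.5, sec-61.G / F32D8.13 with 78.8 and mab-10, a cofactor of developmental timing, with 78.2. Y39A1A.9, a gene for a gamma-tubulin complex component, had 74.5, Y22D7AL.10 / hsp-60 had 73.2 and W01G7.4 had 70.3. The median signal of the 9 was 78.2, against 78.2 for the sites without it. Matches lay 3 to 88 bp from the summit, all on the side of higher coordinates, with a median of 60 bp.

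Base composition differed from the surroundings. Over 100 bp to either side of the summit the GC content was 45.9% ± 7.65 (SD over 207 sites), against 38.6% ± 7.58 in the 414 flanking windows, 39.6% ± 6.49 at the other ranked peaks and 34.4% ± 6.65 in all coding promoters at the same offset. The other main-list peaks had 46.3% ± 7.05. Among words rich in A and T, the GATA-type TGATAA was at 5.80% of the sites, 10.4% of the other main-list peaks and 20.2% of all promoters. In the same order the TATA-type TATAAA was at 12.1%, 10.4% and 24.3%, TTTGAA at 30.9%, 25.1% and 50.6%, and TTTCAG, the splice acceptor consensus, at 22.7%, 17.8% and 32.6%. No value here was adjusted for composition.

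GC-containing words of known factors were mixed. GCGGGAA, an E2F-type word, was at 15 sites (7.25%, 4.11 to 11.7), against 1.45% and 1.93% in the flanks, 2.42% of the other main-list peaks and 2.38% of all promoters. CCGCCC, the GC-box type, was at 23 sites (11.1%, 7.18 to 16.2), against 5.31% and 3.38% in the flanks, 9.17% of the other main-list peaks and 4.04% of all promoters. GAGAGA was at 45 sites (21.7%), against 21.8% of the other main-list peaks and 12.6% of promoters. The ETS-type CCGGAA was at 10.1%, against 8.13% and 6.77%, and the E-box CACGTG at 3.86%, against 4.67% and 3.09%. The cyclic AMP response type TGACGTCA was at 0 sites, which allows up to 1.77%, against 0.692% of the other main-list peaks and 1.28% of promoters.

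The heat shock unit GAANNTTC was at 33 sites (15.9%, 11.2 to 21.7), near its share in the flanks (16.4% and 13.0%) and in all promoters (13.7%). Only 5 sites held 3 or more copies: F44E5.4 / F44E5.5 and pcn-1, which encodes the DNA replication clamp PCNA, with 3 each, ZC262.7 with 10, eri-12, a gene of the RNA interference pathway, with 11, and ZK1053.2 with 13. The last 3 sites share a tandem repeat. A 33-base run common to eri-12 and ZK1053.2 occurred 169 times in the genome, and 13 main-list summits lay within 200 bp of a copy. The peaks of these 3 sites had a median of 93.6% of bases soft-masked in the reference. No count of sites with 3 or more copies is given for flanks, other peaks or promoters, so such copies are no feature of these sites.

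CCTGGGAAG, the 9-base word shown at the start, was at 11 of 207 sites (5.31%, 2.68 to 9.31), 0 of the flanking windows, 1.21% of the other main-list peaks, 0.100% of the other ranked peaks and 0.0801% of all coding promoters. It occurs 361 times in the nuclear chromosomes, and 16 copies lay within 100 bp of these summits. It extends CCTGGGAA and CTGGGAAG, which were among the 8-base words that differed most between summits and flanks, so its shares are a description. By signal it was at 9 of the 52 strongest sites (17.3%), at 2 of the next 52 and at 0 of the others. In the own lists of replicates 1 and 2 it was at 13.7% and 13.4% of the sites.

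The 11 sites with the word had a median signal of 148, with 74.6 and 73.1 in the replicates, and the 196 without it had 77.1, with 39.1 and 41.8. Of the 11, 7 were in both replicate lists (63.6%), against 18 of 196 (9.18%). The word was singled out after the signals were seen, and membership of both lists goes with signal. These contrasts are therefore a description and no separate measure of reproducibility. Besides the 6 shown and VH15N14R.1, the sites with the word were the BTB-domain gene btb-6 (106), the Mediator subunit gene Y49F6C.8 (104), the F-box gene T10C6.10 (84.4) and Y46H3C.5 (82.8). The copy nearest the summit was a median of 30 bp away, and 4 sites held 2 or more copies. cdc-25.3, shown above, encodes a phosphatase that activates cyclin-dependent kinases and had a signal of 109, with 52.4 and 57.3. All 11 lay above the median of the 207 sites, in a range that overlaps that of the sites without it. T10C6.7, T10C6.16 and T10C6.10 share longer sequence with one another, as do VH15N14R.1 and Y46H3C.5. The 11 sites are thus not all separate, and the counts, medians and interval treat them as if they were.

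The 8-base word GAGACGCA was at 15 sites (7.25%, 4.11 to 11.7), against 0.483% and 0.966% in the flanks, 2.08% of the other main-list peaks and 1.85% of all promoters. It too was chosen from the words that differed most. The HSP70 pair F44E5.4 / F44E5.5 and F14D7.2 / F14D7.9 led these sites, followed by Y39B6A.43 (116), R107.5 / cls-2 (109) and Y49F6C.8 (104). Lower in the order were hsp-3, an HSP70 of the endoplasmic reticulum (80.7), sec-61.G / F32D8.13 (78.8), the kinesin gene zen-4 (77.0), lin-66 (74.1) and the DEAD-box helicase gene cgh-1 (63.9). The median signal was 92.4 with the word and 77.5 without. Of 6-base words, CGCGCA differed most, at 42 sites (20.3%), against 2.17% of flanking windows, 9.34% of the other main-list peaks and 4.29% of promoters.

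**Figure D4:**
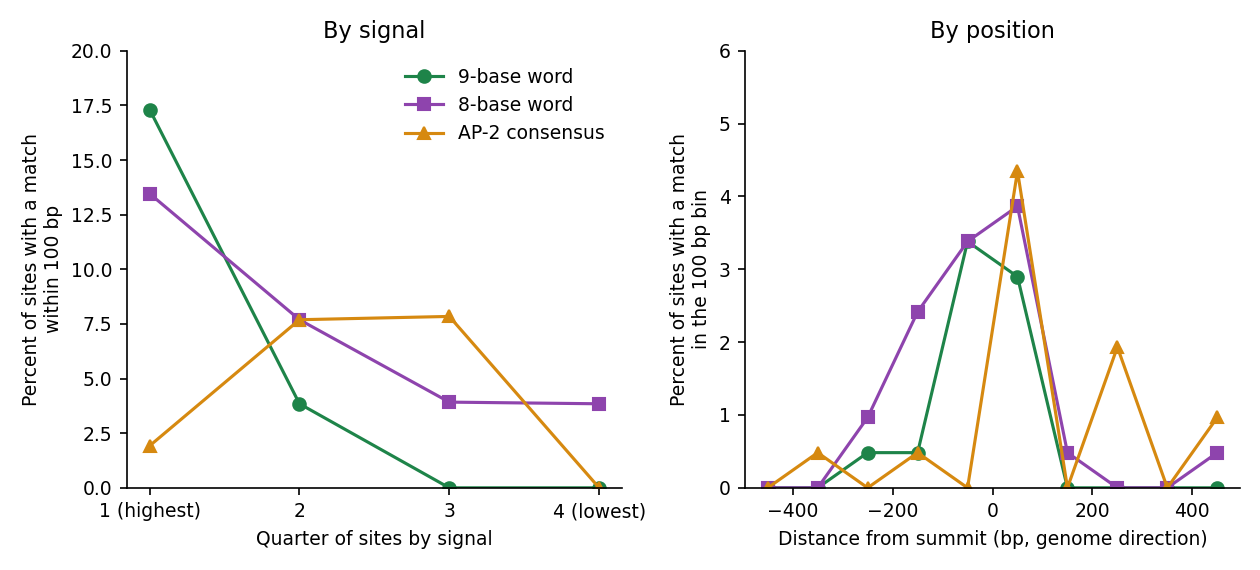
Left, percent of sites with a match within 100 bp of the summit in each of 4 groups of the 207 sites ordered by signal; right, percent with a match in each 100 bp bin of distance from the summit in bp. Green circles are the 9-base word, purple squares the 8-base word and orange triangles the AP-2 consensus; the 9-base word goes from 17.3% in the strongest group to 0 in the weaker 2.

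Some sites share stretches of sequence with one another. 20 sites shared 10 or more words of 20 bases with another one, in 6 sets, chosen here after their values were seen. Overlapping words were each counted, so a single longer identical stretch can hold them all. The repeat printed for eel-1, which does not cover the eel-1 summit, belongs to the largest set. That set joined eel-1 (166), npp-6 (106), Y62F5A.12 (91.6), rps-24 (85.8) and enu-3.3 / mzt-1 (78.7). Its longest run, 83 bases between eel-1 and rps-24, occurred 24 times in the genome, and 2 main-list summits lay within 200 bp of a copy. A second set joined F46C3.7, Y13C8A.1, Y46H3C.7 and F29G9.1 (68.4 to 101), where the longest run of 65 bases occurred 4 times, each within 200 bp of a main-list summit. mtcu-2, vps-39 and unc-85 (78.2 to 127) formed a further set, in which mtcu-2 and vps-39 shared a run of 95 bases with 15 copies in the genome. The 3 T10C6 genes (84.4 to 186) and the pair VH15N14R.1 and Y46H3C.5 (82.8 and 148) were the sets with the 9-base word.

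Soft-masking, which marks repeated sequence in the reference, was compared over whole peaks. On average 24.7% ± 20.96 (SD) of the bases of a peak were soft-masked, against 24.4% ± 25.1 in the other main-list peaks. The medians were 21.96% and 16.9%, and 29 sites (14.01%) were masked over 50% or more of their length, against 12.1%. In the sets that share sequence the median was 32.4%, against 21.3% at the other sites. The labels and headers do not say how reads from repeated sequence were assigned. Signals of sites that share sequence may therefore not be separate measurements.

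By function, the 240 genes were read against 28 lists chosen with results of these data known, and 109 fell in at least 1 list. The share over all coding genes was 1.2%. A gene counted wherever in its window the summit lay, coding exons included. A summit in a shared promoter counted for each of its genes, as for F44E5.4 and F44E5.5 or Y22D7AL.10 and hsp-60. The list intervals treat such genes as separate, though they are not. Of 72 chaperone and cochaperone genes, which fold proteins, 11 had a site (15.3%, 7.88 to 25.7). Beside the F44E5.4 / F44E5.5 pair these were led by bag-1, a cochaperone that releases nucleotide from HSP70 (120, with 42.8 and 76.1 in the replicates), and dnj-13 (114). Then came cct-8, a subunit of the cytosolic chaperonin, hsp-3, the lectin chaperone gene crt-1, Y22D7AL.10 and hsp-60, hsp-110 and hsp-1, with 69.8 to 100. Chaperones of the cytosol, of mitochondria and of the endoplasmic reticulum were all represented. In the shorter lists of replicate 1 and of replicate 2 alone, 5 chaperone genes each had a site.

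The protein synthesis machinery had sites at several levels. Of 81 cytoplasmic ribosomal protein genes 9 had a site (11.1%, 5.21 to 20.05): rpl-3 and rpl-35 at 151 and 149, and rpl-15 (92.6), rps-1 (89.3), rps-24, rpl-16, rps-19, rpl-20 and rla-1 between 61.01 and 92.6. Of 28 ribosome biogenesis genes 5 had one (17.9%, 6.06 to 36.9), led by pro-1, which acts in pre-rRNA processing (119, with 46.5 and 66.8), and T10B5.3, a gene for a protein of the small-subunit processome (78.6). The T10B5.3 summit lay 831 bp upstream, in a coding exon of another gene, and those of rpl-16 and rla-1 lay in coding exons of their own. Of 62 translation factor genes 2 had one, the translational repressor gene ifet-1 (89.3), in the promoter it shares with rps-1, and ife-1, a cap-binding factor (63.9). 0 of 33 aminoacyl tRNA synthetase genes and 0 of 72 mitochondrial ribosomal protein genes had one, which allows up to 10.6% and 4.99%. In replicate 1's own list 2 ribosomal protein genes had a site, and in replicate 2's own list 5.

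Transcription and RNA processing genes were represented in part. Of 104 RNA polymerase and general transcription factor genes 6 had a site (5.77%, 2.15 to 12.1): Y49F6C.8 (104) and the TFIID gene Y22D7AL.4 (98.5), then rpc-2, rpoa-2, taf-9 and taf-11.3 at 62.7 to 69.1. Of 80 splicing genes 4 had one (5.00%), mog-4 (141), lsm-8 (85.1), prp-19 (82.9) and hrpk-1 (69.8). Of 45 nuclear pore and transport genes 3 had one (6.67%): npp-6 (106), npp-8 (70.2) and ran-1 (67.6). Of 89 histone genes 4 had one (4.49%), his-58 (86.9), his-61 and the pair his-63 and his-64. Of 115 chromatin genes 6 had one (5.22%, 1.94 to 11.0), led by lin-35, the retinoblastoma homolog (82.4, with 21.1 and 57.3), and unc-85, a histone chaperone (78.2).

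Genes of cell division and the cytoskeleton had a share of the same order. Of 140 cell cycle genes 9 had a site (6.43%, 2.98 to 11.9), cdc-25.3 and cls-2 at 109, the kinesin gene klp-16 at 93.0 and cdc-48.1, an AAA ATPase, at 86.9 among them. Of 96 tubulin, kinesin and dynein genes 7 had one (7.29%, 2.98 to 14.4), with tbb-1 (109), ZC262.7 (103), tba-1 (99.1) and klp-16 the highest. Of 78 DNA replication and repair genes 2 had one, rpa-2 (137) and pcn-1 (71.7). Of 85 genes listed by symbol as germline and small RNA genes 8 had one (9.41%, 4.15 to 17.7). ego-1 (147), epg-4 (91.9), the P granule gene deps-1 (91.1) and ifet-1 (89.3) were the highest. cgh-1 and the Argonaute gene alg-2 were the lowest, at 63.9 and 62.6. For epg-4 the listing rests on its product name, ectopic P granules protein 4, and a role in the germline or with small RNAs was not tested. ifet-1, klp-16 and zen-4 each count in more than 1 list. Some single summits do so too through a shared promoter, such as those of hsp-110 / rpn-3 and dkc-1 / ran-1. In the own lists of replicates 1 and 2, 3 and 1 cell cycle genes and 2 and 2 germline genes had a site.

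Degradation, membrane traffic and respiration followed. Of 165 ubiquitin enzyme genes 6 had a site (3.64%, 1.35 to 7.75), with eel-1 (166), wwp-1 (131), lep-2, a makorin (107), and ulp-4 (73.1) the highest. Of 43 proteasome genes 3 had one (6.98%): ecps-1 (94.3), rpn-3 (70.4) and C25A1.20 (68.8). Of 129 genes of the endoplasmic reticulum and vesicle traffic 8 had one (6.20%, 2.72 to 11.9), led by vps-39 (94.8), vps-51 (82.4), C56C10.7 (81.8) and sec-61.G (78.8). Of 112 respiratory chain genes 5 had one (4.46%, 1.47 to 10.1), led by cox-5B (122), nduf-2.2 (87.9), T27E9.2 (82.15) and nduf-9 (80.3).

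Of 1431 chemoreceptor genes 3 had one (0.210%, 0.0433 to 0.611): sre-23 (149), srbc-38 (70.1) and srh-178 (58.2). Of 252 neuropeptide genes 1 had one, W08A12.2 (94.0), of 204 ion channel and innexin genes 1, inx-7 (89.9), and of 257 C-type lectin genes 1, clec-1 (65.8). No site stood at any of 138 homeodomain and bHLH genes, 273 nuclear hormone receptor genes or 184 cuticle collagen genes, which allows up to 2.64%, 1.34% and 1.98%. Of these lists only the chemoreceptors had an interval that left out the 1.2% of all coding genes. Of 711 F-box and BTB genes 8 had one (1.13%, 0.487 to 2.21), at the share of all genes, with T10C6.7, T10C6.16, F54D5.9 and btb-6 the highest. The 4 AP-2 family genes had none, and the nearest site to aptf-3 lay 9547 bp from its 5′ end.

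**Figure D5:**
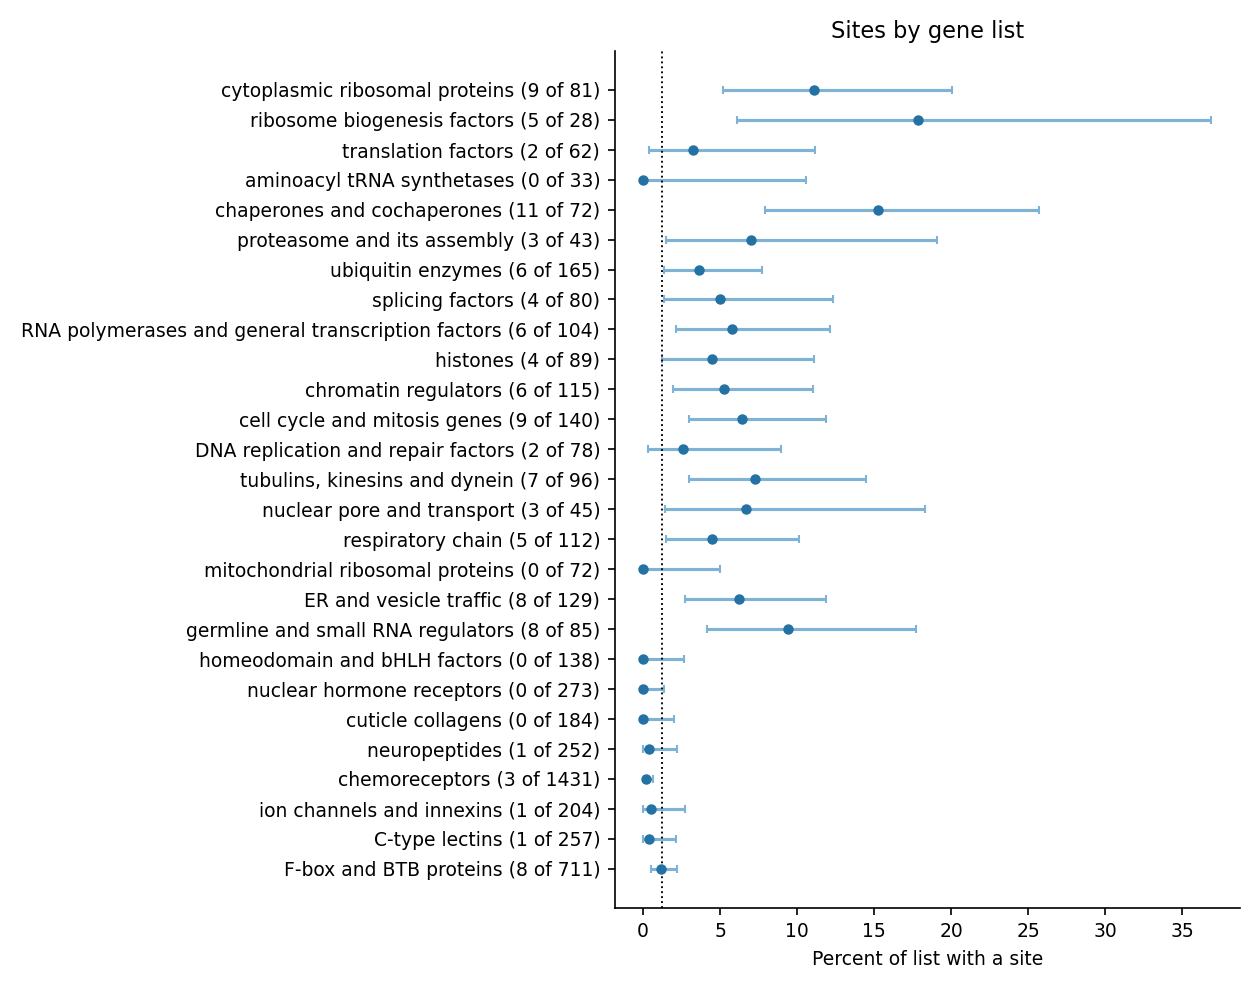
Percent of the genes of each list with a coding-promoter site in the window, with exact 95% intervals, for the lists of 20 or more genes; the counts stand beside the names. The dotted line is the share over all coding genes, 1.2%; chaperone, ribosomal protein, ribosome biogenesis and germline lists lie to its right, and chemoreceptors to its left.

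Along the genome the sites were uneven. Chromosomes III and IV held 44 and 43 of them, or 21.3% (15.9 to 27.5) and 20.8% (15.5 to 26.9), against 13.2% and 16.4% of coding genes. Chromosome X held 14, or 6.76% (3.75 to 11.1), against 13.7% of coding genes, 12.5% of the other ranked peaks and 16.3% of the main list. Chromosome V held 37 (17.9%, 12.9 to 23.8), against 4994 of the 19973 coding genes. The remaining chromosomes, I and II, held 34 and 35. The central part of each chromosome, from 1/3 to 2/3 of its length, held 38.6% of the sites (32.0 to 45.6), against 37.8% of coding genes and 30.5% (26.7 to 34.4) of the other main-list peaks.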

How the data were processed

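Peak lists of 2 biological replicates were analysed: the main, conservative and ranked lists of the series, and a ranked and a thresholded list of each replicate. Peak signal is the authors' deposited value, whose scale the labels and headers do not define, and the score in the ranked list is the −log10 of the global IDR (irreproducible discovery rate), as the values show. Peaks were deposited on ce11, per the labels. Fragments were made by sonication, per the labels. For the aligner and the peak caller, no name or setting was given in the sources used here, the depth is unknown, and the control was not analysed here.

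Summits were placed on the Ensembl 115 annotation of WBcel235, the assembly that ce11 names. No peak ran past a chromosome end. Gene products came from RefSeq of that assembly and matched 19962 of 19973 coding genes. Replicate signals were taken at the nearest summit within 100 bp, list overlap needed 1 bp, and motifs were searched on both strands within 100 bp of the summit. Soft-masking is that of the RefSeq genome. Intervals are exact binomial 95% intervals, or order-statistic intervals for medians, and cover counting error only, as there is 1 group and no test between conditions.

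Named genes were the 12 strongest sites, the 6 strongest divergent sites, the 3 strongest of each other layout, up to 8 with the AP-2 consensus, up to 4 for each list, the 12 strongest in both replicate lists, those at the limits of the rule and the 2 weakest. Other genes were named after their values were seen. The sites, the gene lists and the words were chosen with earlier results of these data known. The alternatives tried were the conservative list, the list of each replicate, the upper 50% by signal, other windows and distances, any transcript's 5′ end, merged peaks and unmasked peaks. Python 3.11.15, numpy 2.4.6, pandas 2.3.3, scipy 1.17.1 and matplotlib 3.10.9 were used. Placement and motif search were tested on simulated data.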

Additional observations from a re-analysis of the deposited data

How the results depend on the processing

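No paired analysis was possible because both replicates belong to 1 group. The share of main-list peaks that met the rule (26.4%) moved outside its interval with a narrow window, 500 bp before to 100 bp after the 5′ end (18.1%), with a wide one, 2000 bp before to 500 bp after (40.0%), without the small RNA limit (32.6%) and with the 5′ end of any transcript (30.1%); each replicate's own list gave 27.8% to 28.7%. The divergent share (16.9%) moved to 9.86% in the narrow and 25.5% in the wide window, and to 23.5% in replicate 1's own list. In replicate 2's own list it was 20.9%, inside the interval. The median position, -262 bp, moved to -183.5 bp and -385.5 bp in those windows and was -253 to -289 bp in the replicates' lists. The share in both replicate lists (12.1%) was 21.6% in the upper 50% by signal. The AP-2 consensus (4.35%) was at 1.93% within 50 bp, at 9.66% with 2 to 4 bases between its arms, and at 1.96% (replicate 1) to 4.48% (replicate 2) in the replicates' lists. All other alternatives left these 5 values inside their intervals.

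Further alternatives were chosen after seeing the data. In them the 9-base word was at 13.7% and 13.4% of the sites of the replicates' lists and at 9.91% of the upper 50% by signal. In the list of replicate 1 alone, 5 chaperone, 2 ribosomal protein, 3 cell cycle and 2 germline genes had a site, and in that of replicate 2 alone 5, 5, 1 and 2, since those lists hold 178 and 241 peaks. With 1 group, an unknown depth and no control analysed here, no site can be set against an untagged background, and shares of sites carry counting error only.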
